A study of Schizosaccharomyces pombe with 4 samples.

Results

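Glucose-repressed carbon metabolism in fission yeast (Schizosaccharomyces pombe) was followed through 8 genes, chosen by name among the features of type mRNA. They are 8 of 5144 mRNA features and of 7015 features in all. The enzymes are fbp1 (fructose-1,6-bisphosphatase), inv1 (secreted invertase), agl1 (maltose alpha-glucosidase), gld1 (mitochondrial glycerol dehydrogenase), gut2 (predicted glycerol-3-phosphate dehydrogenase) and mae2 (malic enzyme). The regulators are the transcription factors rst2 and scr1. Total RNA was sequenced from strains with genomic deletions of swd22 (swd22Δ), ssu72 (ssu72Δ) and clr4 (clr4Δ) and from wild type (WT). Each culture was kept in mid-log phase over 3 days at 18 °C in YEA, a rich glucose medium, and the labels name no other allele, clone or mating type. Swd22 and Ssu72 belong to CPF, the complex that cleaves and polyadenylates transcripts, and Clr4 is the methyltransferase that marks heterochromatin on histone H3. The study concerns the part that CPF takes in silencing and heterochromatin.

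As background, fission yeast growing on glucose keeps genes for the use of other carbon sources at a low level. Glucose is sensed at the cell surface and raises cAMP, which activates the protein kinase Pka1. Pka1 holds back the zinc finger activator Rst2, while the Mig1-type zinc finger repressor Scr1 sits on many of the same promoters. When glucose runs low, Rst2 and the stress-linked pair Atf1 and Pcr1 switch fbp1 on. The fbp1 gene is the textbook case of this control, and inv1 is repressed through Scr1.

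Each genotype had 1 library, so no difference here has a replicate check and no test of genotype was possible. The deposited values are ratios to a further, unnamed library whose strain and growth are not known. Read numbers were recovered from ratio and p-value. The 5 libraries held 14075375 to 22364661 reads over mRNA features. Differences are log2 ratios on the scale of the deposited values, and brackets hold 95% intervals that cover counting error only. The ssu72Δ-labelled library held 16 reads of ssu72 against 478 in the WT-labelled one, and the swd22Δ-labelled library held 281 reads of swd22 against 687. The feature of swd22 covers 1529 bases, with 1026 coding bases, and its reads were reduced but not absent. The feature of clr4 held 1645 reads in the clr4Δ-labelled library against 1158, over 4492 bases that reach well beyond its 1473 coding bases, so that label could not be checked with it. The telomere-linked helicase gene tlh2 held 4618 reads in the clr4Δ-labelled library. It held 20 in swd22Δ, 370 in ssu72Δ, 771 in the WT-labelled library and 115 in the unnamed one. The WT-labelled library stood apart from the others. It held 200 reads of swi6, against 3601 to 4431 in the remaining libraries, and 6 reads of ura4, against 1732 to 3961. Member differences are therefore also given against the unnamed library, and libraries are called by their labels. In RNA from whole cultures, fewer cells that express a gene and less RNA in each cell cannot be told apart.

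The upstream sequences of 5 members are shown, for the following reasons. The genes fbp1 and inv1 were high in all 3 deletion libraries. In both CPF libraries mae2 and gut2 were at least 2-fold lower than in the WT-labelled library, though not than in the unnamed one. The gene scr1 held the most matches to the Rst2 motif in this window. Each sequence is the 250 bases before the RefSeq transcription start in assembly ASM294v3, read along the gene's own strand. Capitals mark CCCCTC (the element that Rst2 binds), TGACGT (the cAMP response element of Atf1 and Pcr1), CCAAT (the element of the Php complex) and the Mig1 type that Scr1 binds (G or C, then C or T, then GGGG), on either strand. No matches overlapped. The lines stand for chrII:199370-199619 on the minus strand (fbp1), chrIII:1723184-1723433 on the plus strand (inv1), chrIII:277263-277512 on the minus strand (mae2), chrIII:1843257-1843506 on the minus strand (gut2) and chrII:1751843-1752092 on the plus strand (scr1).
fbp1: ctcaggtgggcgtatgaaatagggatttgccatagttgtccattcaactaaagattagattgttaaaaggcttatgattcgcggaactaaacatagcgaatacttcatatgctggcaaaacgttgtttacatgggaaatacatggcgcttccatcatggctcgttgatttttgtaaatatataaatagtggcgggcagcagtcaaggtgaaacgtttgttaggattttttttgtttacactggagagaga
inv1: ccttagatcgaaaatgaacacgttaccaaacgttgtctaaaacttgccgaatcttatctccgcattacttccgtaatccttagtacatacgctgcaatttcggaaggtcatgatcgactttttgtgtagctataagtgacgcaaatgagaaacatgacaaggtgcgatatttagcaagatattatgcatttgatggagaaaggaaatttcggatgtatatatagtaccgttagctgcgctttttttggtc
mae2: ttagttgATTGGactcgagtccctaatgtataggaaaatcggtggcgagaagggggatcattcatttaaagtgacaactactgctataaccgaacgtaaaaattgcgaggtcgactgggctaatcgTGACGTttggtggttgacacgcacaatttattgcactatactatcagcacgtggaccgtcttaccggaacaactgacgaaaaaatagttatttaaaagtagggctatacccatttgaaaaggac
gut2: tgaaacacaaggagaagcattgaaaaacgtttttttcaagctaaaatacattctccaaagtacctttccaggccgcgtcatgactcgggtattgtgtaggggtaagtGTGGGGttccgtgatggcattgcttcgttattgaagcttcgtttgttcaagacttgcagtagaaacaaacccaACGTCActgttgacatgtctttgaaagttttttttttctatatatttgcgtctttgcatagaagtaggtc
scr1: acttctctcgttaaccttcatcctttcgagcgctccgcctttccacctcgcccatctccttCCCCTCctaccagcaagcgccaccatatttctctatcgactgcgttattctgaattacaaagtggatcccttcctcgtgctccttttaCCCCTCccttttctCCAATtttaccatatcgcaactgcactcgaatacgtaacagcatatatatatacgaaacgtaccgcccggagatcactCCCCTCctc

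The same motifs were counted over 250 bases before to 50 bases after the RefSeq start of 5112 protein-coding genes. TGACGT occurred in 5.91% of these windows, and among the members in mae2, 124 bases before the start, and in gut2, 70 bases before it. CCCCTC occurred in 2.11% of windows, and scr1 was the only member with it, at 189, 101 and 9 bases before the start. The Mig1 type occurred in 7.08% of windows and in 3 members, namely gut2, rst2 and scr1. CCAAT occurred in 42.2% of windows and in 3 members, namely agl1, mae2 and scr1. The windows of fbp1, inv1 and gld1 held none of these motifs. In the files the features of fbp1, inv1, mae2 and gut2 begin 105, 41, 78 and 44 bases before the RefSeq start, so that the ends of their lines lie inside the counted span. Those of gld1 and agl1 begin 478 and 1076 bases before it, and their windows lie wholly inside the counted span.

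The search was widened to the 1500 bases before the start codon after the first window had been seen. There fbp1 held TGACGT 1167 bases and CCCCTC 534 bases before the start codon. TGACGT occurred in 20.9% of such regions in the genome and in 5 members (fbp1, inv1, mae2, gut2 and rst2). CCCCTC occurred in 11.7% of regions and in 3 members (fbp1, gld1 and gut2). The Mig1 type occurred in 28.95% of regions and in 5 members (gld1, agl1, gut2, rst2 and scr1), with 6 matches in gld1 and 7 in agl1, and CCAAT in 95.5% of regions and in all 8. Parts of these regions lie inside transcribed spans, and the 3 CCCCTC matches of scr1 lie farther from its start codon than this window reaches. The matches of fbp1 and that of inv1 are shown with 12 bases on either side. Site A of fbp1 is TGACGT, read from the other strand, at chrII:200292-200321 on the minus strand, and site B is CCCCTC at chrII:199659-199688 on the minus strand, both inside the span of the noncoding feature SPNCRNA.1325. The inv1 site is TGACGT at chrIII:1722894-1722923 on the plus strand, 528 bases before the RefSeq start. Capitals mark only that motif.
fbp1 site A: tcccaatcatctACGTCAcaaagcattagt
fbp1 site B: tttcattgcaagCCCCTCgttttttgaaga
inv1 site: attggttttgacTGACGTcccaaaacctcg

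Fructose-1,6-bisphosphatase, the enzyme that returns fructose-1,6-bisphosphate to hexose phosphate in gluconeogenesis, is encoded by fbp1 (SPBC1198.14C, chromosome II, 197660 to 199474, minus strand, with 1 coding exon). It held 1556 reads in the swd22Δ-labelled library, 1135 in the ssu72Δ-labelled one, 1748 in the clr4Δ-labelled one, 148 in the WT-labelled one and 95 in the unnamed library. All 3 deletion libraries were high and both other libraries low. As RPKM, reads scaled to the feature's length and to the library's mRNA reads, the levels in the same order were 46.7, 28.0, 45.8, 5.79 and 2.44. Against the WT-labelled library the log2 difference was 3.03 (2.79 to 3.29) in swd22Δ, 2.29 (2.04 to 2.54) in ssu72Δ and 2.98 (2.74 to 3.23) in clr4Δ, or 8.18-fold, 4.88-fold and 7.90-fold. Against the unnamed library the differences were 4.24 (3.94 to 4.56), 3.50 (3.19 to 3.81) and 4.19 (3.89 to 4.51). The WT-labelled library itself lay 1.21 (0.83 to 1.60) above the unnamed library.

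Invertase splits sucrose outside the cell, and inv1 (SPCC191.11, chromosome III, 1723393 to 1726164, plus strand) had the largest differences of the 8 genes. It held 3498 reads in the swd22Δ-labelled library, 3549 in the ssu72Δ-labelled one, 4484 in the clr4Δ-labelled one, 228 in the WT-labelled one and 95 in the unnamed library. Again all 3 deletion libraries were high and both others low, with levels in RPKM of 68.8, 57.2, 76.9, 5.84 and 1.60. The log2 difference from the WT-labelled library was 3.58 (3.38 to 3.78) in swd22Δ, 3.31 (3.11 to 3.51) in ssu72Δ and 3.72 (3.53 to 3.92) in clr4Δ. From the unnamed library it was 5.41 (5.12 to 5.72), 5.14 (4.85 to 5.45) and 5.55 (5.26 to 5.86). The highest level of inv1 was 48.1 times its lowest, the widest span of the 8 genes, and the lowest was in the unnamed library.

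Maltase splits maltose into glucose, and agl1 (SPAPB24D3.10C, chromosome I, 2967916 to 2972064, minus strand) was the least abundant member per length in the library of each genotype. It held 544 reads in the swd22Δ-labelled library, 692 in the ssu72Δ-labelled one, 1017 in the clr4Δ-labelled one, 203 in the WT-labelled one and 382 in the unnamed library. The clr4Δ library was the highest and the 2 CPF libraries lay between it and the others, at levels of 7.15, 7.46, 11.7, 3.48 and 4.30 RPKM. The log2 difference from the WT-labelled library was 1.06 (0.83 to 1.30) in swd22Δ, 1.12 (0.89 to 1.35) in ssu72Δ and 1.75 (1.53 to 1.97) in clr4Δ. The intervals of the first 2 reach below 1, so within counting error they lie on either side of 2-fold. From the unnamed library the differences were 0.72 (0.53 to 0.91), 0.78 (0.59 to 0.96) and 1.40 (1.23 to 1.58), and only that of clr4Δ was at least 2-fold.

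**Figure D1:**
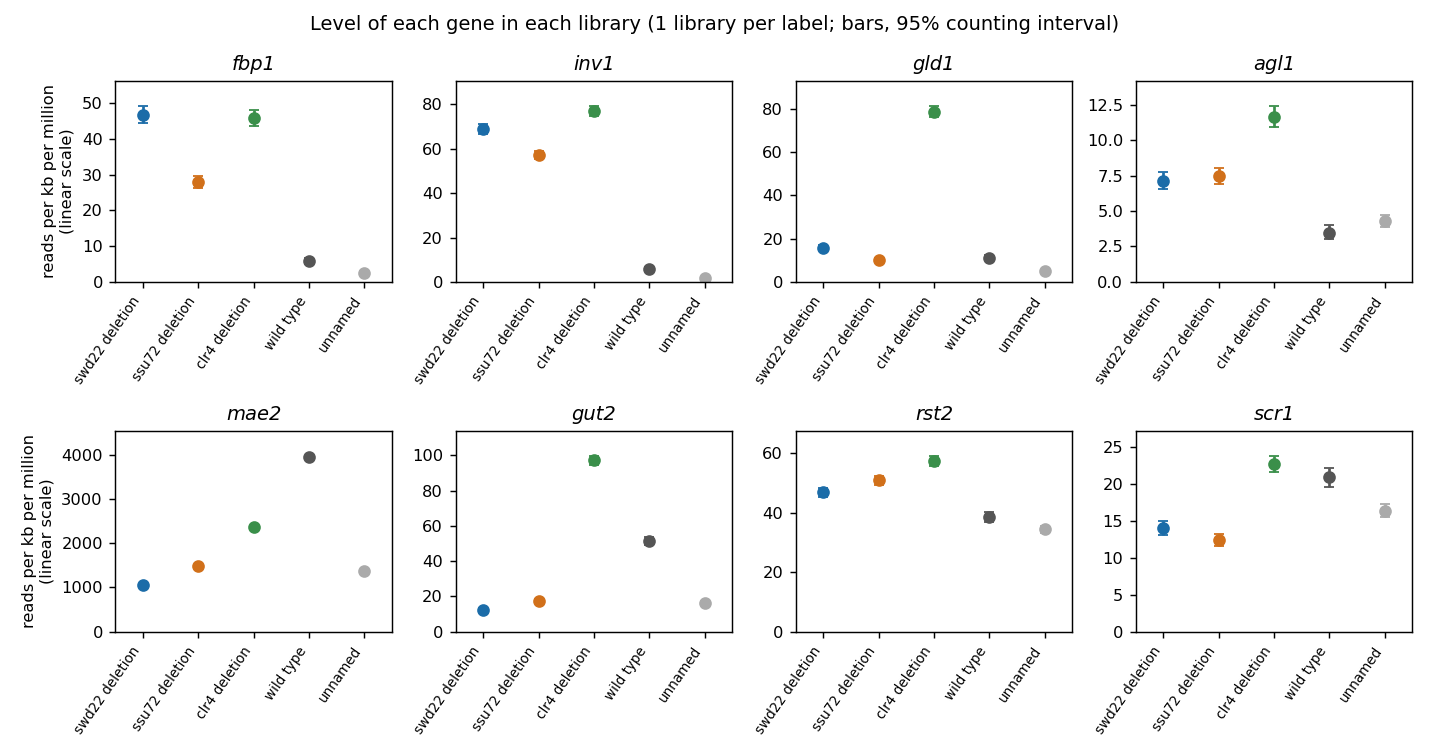
Level of each of the 8 genes in RPKM over mRNA features, on linear axes that start at 0, in the libraries labelled swd22, ssu72 and clr4 deletion and wild type and in the unnamed library, with points for single libraries and bars for 95% counting intervals. In fbp1, inv1 and agl1 the 3 deletion libraries lie above the other two, in gld1 and gut2 the clr4Δ library stands highest (78.9 and 97.2), and in mae2 the WT-labelled library does (3951).

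The glycerol genes set the clr4Δ library apart from both CPF libraries. Glycerol dehydrogenase oxidises glycerol on its way into glycolysis, and gld1 (SPAC13F5.03C, chromosome I, 2174641 to 2177050, minus strand) held 695 reads in the swd22Δ-labelled library, 539 in the ssu72Δ-labelled one, 3996 in the clr4Δ-labelled one, 380 in the WT-labelled one and 249 in the unnamed library. The clr4Δ library was by far the highest, at a level of 78.9 RPKM, with 15.7 and 10 in the swd22Δ and ssu72Δ libraries, 11.2 in the WT-labelled one and 4.82 in the unnamed library. The log2 difference from the WT-labelled library was 2.81 (2.66 to 2.97) in clr4Δ, against 0.51 (0.33 to 0.69) in swd22Δ and -0.15 (-0.34 to 0.05) in ssu72Δ. The interval in ssu72Δ includes 0. From the unnamed library, which was the lowest, gld1 differed by 1.69 (1.48 to 1.90) in swd22Δ, 1.03 (0.81 to 1.26) in ssu72Δ and 3.99 (3.81 to 4.19) in clr4Δ, and by 1.18 (0.95 to 1.42) in the WT-labelled library. With that control both CPF libraries were at least 2-fold higher, though the interval in ssu72Δ reaches below 2-fold. Set against the clr4Δ library directly, gld1 had a log2 difference of -2.31 (-2.42 to -2.19) in the swd22Δ library and of -2.96 (-3.09 to -2.83) in the ssu72Δ library. These comparisons do not use the WT-labelled library.

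Glycerol-3-phosphate dehydrogenase of mitochondria passes electrons from glycerol-3-phosphate to the respiratory chain, and its predicted gene gut2 (SPCC1223.03C, chromosome III, 1840594 to 1843300, minus strand) differed in both directions. It held 610 reads in the swd22Δ-labelled library, 1049 in the ssu72Δ-labelled one, 5529 in the clr4Δ-labelled one, 1953 in the WT-labelled one and 955 in the unnamed library. The clr4Δ library was the highest and the WT-labelled one the next, while the CPF libraries lay near the unnamed one, with levels of 12.3, 17.3, 97.2, 51.3 and 16.5 RPKM. Against the WT-labelled library the log2 difference was -2.04 (-2.17 to -1.91) in swd22Δ, -1.55 (-1.66 to -1.44) in ssu72Δ and 0.92 (0.85 to 0.997) in clr4Δ. Against the unnamed library it was -0.44 (-0.59 to -0.29), 0.054 (-0.07 to 0.18) and 2.52 (2.42 to 2.62). The 2-fold lower values of the CPF libraries therefore rest on the WT-labelled library, and the direction in ssu72Δ turned with an interval that includes 0. Against the clr4Δ library the log2 difference of gut2 was -2.96 (-3.08 to -2.84) in the swd22Δ library and -2.47 (-2.57 to -2.37) in the ssu72Δ library.

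Malic enzyme turns malate into pyruvate, and its gene mae2 (SPCC794.12C, chromosome III, 275261 to 277340, minus strand) did not share the low level of the other enzymes. It held 40487 reads in the swd22Δ-labelled library, 68879 in the ssu72Δ-labelled one, 103468 in the clr4Δ-labelled one, 115661 in the WT-labelled one and 61204 in the unnamed library. Ordered by level per length among the 5144 mRNA features it took places 63, 47, 13, 6 and 68 in the same libraries, so a repressed level in this glucose medium, as the name of the gene group implies, is not seen for mae2. The WT-labelled library was the highest, at a level of 3951 RPKM, against 1061, 1481 and 2366 in the swd22, ssu72 and clr4 libraries and 1373 in the unnamed library. The log2 difference from the WT-labelled library was -1.88 (-1.89 to -1.86) in swd22Δ, -1.40 (-1.41 to -1.39) in ssu72Δ and -0.74 (-0.75 to -0.73) in clr4Δ. From the unnamed library it was -0.39 (-0.41 to -0.37), 0.089 (0.073 to 0.10) and 0.75 (0.73 to 0.76), so the ssu72Δ and clr4Δ libraries lay below one control and above the other.

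The regulators had the narrowest spans of level, 1.67 times for rst2 and 1.84 times for scr1. The gene of the activator Rst2 (SPAC6F12.02, chromosome I, 1309676 to 1313429, plus strand) held 3223, 4269 and 4529 reads in the libraries labelled swd22, ssu72 and clr4 deletion, against 2037 in the WT-labelled one and 2763 in the unnamed library. All 3 deletion libraries lay higher, by 0.30 (0.22 to 0.38), 0.42 (0.34 to 0.49) and 0.57 (0.50 to 0.65) on the log2 scale from the WT-labelled library, and none reached 2-fold. From the unnamed library the differences of rst2 were 0.43 (0.36 to 0.50), 0.55 (0.48 to 0.62) and 0.70 (0.63 to 0.77). The gene of the repressor Scr1 (SPBC1D7.02C, chromosome II, 1752100 to 1755619, plus strand) held 903, 972 and 1678 reads in the deletion libraries, against 1034 in the WT-labelled one and 1233 in the unnamed library. Both CPF libraries were low, at differences of -0.56 (-0.69 to -0.43) in swd22Δ and -0.74 (-0.87 to -0.61) in ssu72Δ, while clr4Δ lay at 0.12 (0.01 to 0.23). From the unnamed library the differences of scr1 were -0.24 (-0.37 to -0.12), -0.42 (-0.55 to -0.30) and 0.44 (0.33 to 0.54). The scr1 promoter above was shown for its 3 matches to CCCCTC. The 0.0196% of all windows with 3 or more include that of scr1 itself, so this share only restates the choice. A link of these matches to the level of scr1 was not tested.

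The order of the 8 genes by level per length differed between libraries below mae2, which was first in all of them. In the swd22Δ library inv1 came next at 68.8, then rst2 and fbp1 at 46.8 and 46.7, whose counting intervals overlap, then gld1, scr1 and gut2 at 15.7, 13.98 and 12.3, with overlapping neighbours, and agl1. In the ssu72Δ library the order was inv1, rst2, fbp1, gut2, scr1, gld1 and agl1, with no overlap between neighbours. In the clr4Δ library it was gut2, gld1 and inv1 (gld1 and inv1 overlapping), then rst2, fbp1, scr1 and agl1. The WT-labelled library had gut2, rst2, scr1 and gld1 above inv1 and fbp1, which overlapped at 5.84 and 5.79, and agl1. In the unnamed library rst2 came after mae2 and inv1 was last.

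**Figure D2:**
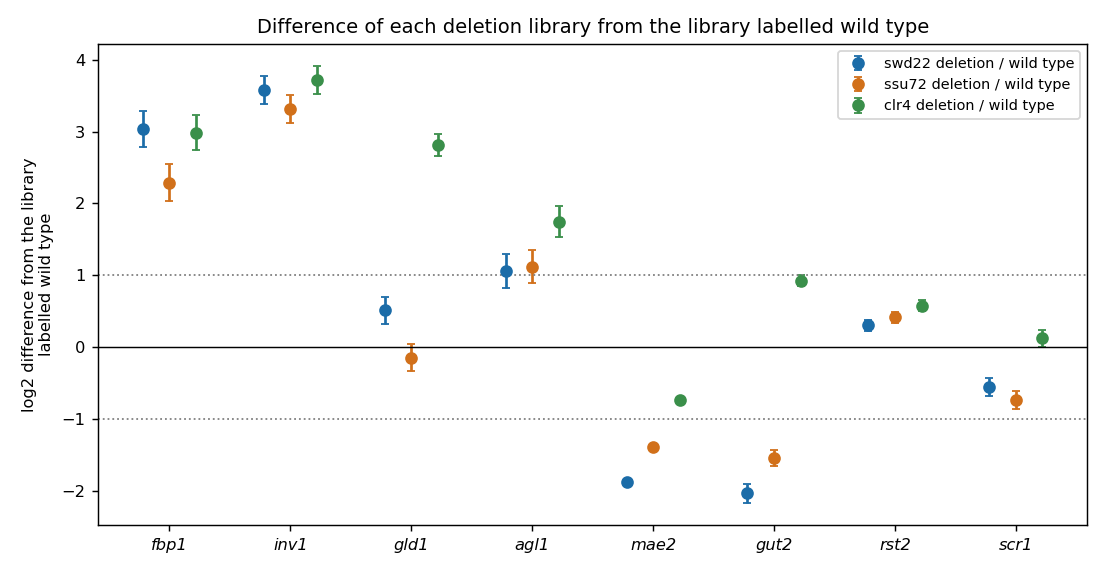
Log2 difference of the libraries labelled swd22, ssu72 and clr4 deletion from the WT-labelled library for each gene, with 95% counting intervals as bars and 2-fold as dotted lines. The points of fbp1, inv1 and agl1 lie above 1 for all 3 deletions, those of mae2 and gut2 lie below -1 for the CPF deletions, and gld1 lies above 1 in clr4Δ.

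Counted together, 3 of 8 members were at least 2-fold higher and 2 lower in the swd22Δ-labelled library than in the WT-labelled one. The background was 6.48% of 5048 measured mRNA features higher and 1.72% lower, and the median difference was 0.41 over the members and 0.03 over all mRNA features. The ssu72Δ library also had 3 members higher and 2 lower, against a background of 6.1% higher and 2.87% lower, with medians of 0.13 and -0.02. The clr4Δ library had 4 members higher and 0 lower, against 5.4% and 1.23%, with medians of 1.33 and -0.03. The members higher in all 3 were fbp1, inv1 and agl1, among 152 mRNA features in all. The comparisons share the WT-labelled library, so these counts are not independent of each other.

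Against the unnamed library, 3 members were at least 2-fold higher in the swd22Δ library (fbp1, inv1 and gld1), 3 in the ssu72Δ library (the same genes) and 5 in the clr4Δ library (with agl1 and gut2), and 0 were lower. The backgrounds were 8.89% higher and 2.34% lower in swd22Δ, 8.39% and 2.4% in ssu72Δ, and 8.13% and 1.74% in clr4Δ. The WT-labelled library had 5 of 8 members at least 2-fold higher than the unnamed library (fbp1, inv1, gld1, mae2 and gut2) and 0 lower, against a background of 5.43% and 2.86%. Its largest difference was that of inv1, at 1.83 (1.48 to 2.19).

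**Figure D3:**
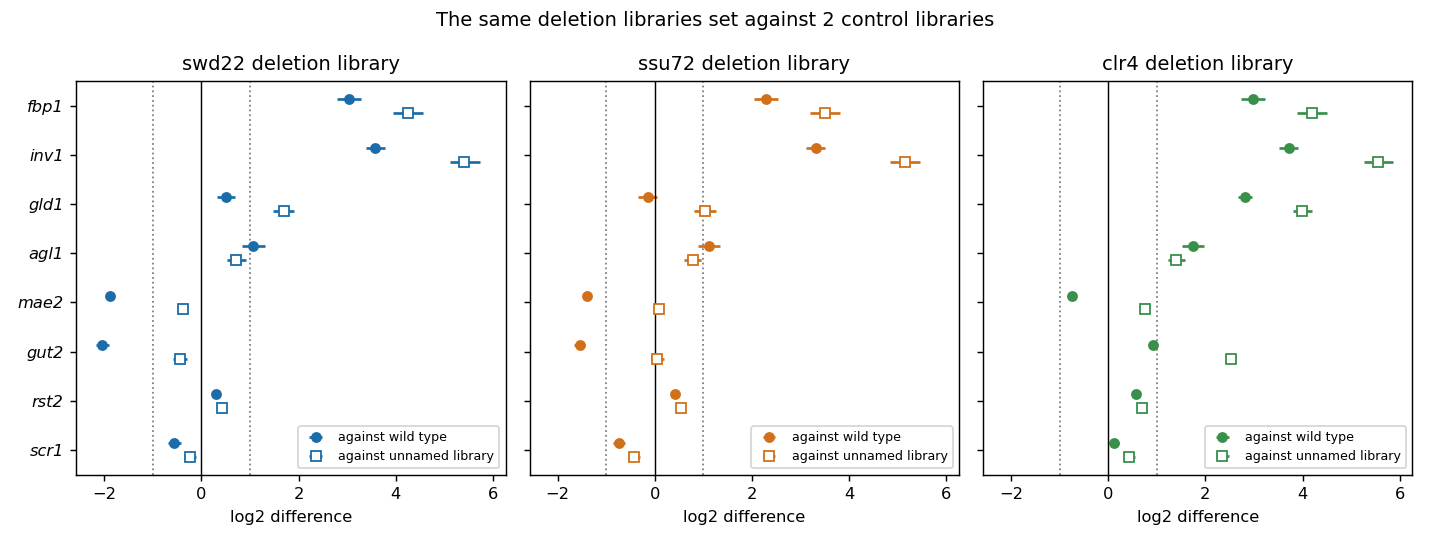
Log2 difference of each deletion library from the WT-labelled library (filled circles) and from the unnamed library (open squares), 1 panel per deletion, with 95% counting intervals and 2-fold as dotted lines. The values of fbp1 and inv1 are above 1 with either control, while mae2 and gut2 in the ssu72 panel lie at -1.40 and -1.55 with the WT-labelled library and lie at 0.089 and 0.054 with the unnamed one.

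Among the deletion libraries themselves, ssu72Δ and swd22Δ differed by less than 2-fold in all 8 genes, where 0.476% of mRNA features were higher and 1.09% lower. The lowest value was that of fbp1, with 1135 reads in the ssu72Δ library against 1556 in the swd22Δ library, a log2 difference of -0.75 (-0.86 to -0.63). The highest was that of gut2, at 0.49 (0.35 to 0.64). Against the clr4Δ library, the swd22Δ library had 3 members at least 2-fold lower (gld1, gut2 and mae2) and 0 higher, with 2.04% and 1.46% of mRNA features. The ssu72Δ library had 2 lower (gld1 and gut2) and 0 higher, with 2.29% and 1.23%. By comparison fbp1 differed by 0.05 (-0.05 to 0.15) between the swd22 and clr4 libraries, and inv1 by -0.14 (-0.20 to -0.08).

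The other genes of glucose sensing mostly lay within 2-fold of the WT-labelled library. Of 12 genes of the cAMP pathway, 11 were found, and git7, a gene needed for glucose sensing through adenylate cyclase, was the only one at least 2-fold higher in the swd22Δ library than in the WT-labelled one, at 1.05 (0.93 to 1.17). That 1 of 11 stands beside 6.48% of all mRNA features, and from the unnamed library git7 differed by 0.51 (0.42 to 0.61), so the call rests on the WT-labelled library. In the ssu72 and clr4 libraries 0 of 11 were 2-fold away, and 0 were lower in any of the 3. The list medians were 0.06, -0.10 and 0.16. With the unnamed library as control 4, 3 and 5 of the 11 were at least 2-fold higher in the swd22Δ, ssu72Δ and clr4Δ libraries, as were 4 in the WT-labelled library, beside 8.89%, 8.39%, 8.13% and 5.43% of all mRNA features. Of 9 genes that encode other regulators of fbp1 (the Atf1 and Pcr1 pair, the Php complex, the Tup11 and Tup12 corepressors and the stress kinases Sty1 and Wis1), 0 were 2-fold away in any of the 3 comparisons with the WT-labelled library. Their differences ran between -0.98 and 0.56. The gene pcr1 was higher than in the unnamed library at 1.09, 1.17 and 1.23. It was 1 of the 9 in each deletion library, beside 8.89%, 8.39% and 8.13% of all mRNA features. Of 6 genes around the AMP-activated kinase Ssp2, 5 were found and 0 were 2-fold away from either control.

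Genes of sugar breakdown mostly lay within 2-fold of the WT-labelled library, where the share of all mRNA features at least 2-fold higher was 6.48% in swd22Δ, 6.1% in ssu72Δ and 5.4% in clr4Δ. Of 17 genes of glycolysis and fermentation, 2 were at least 2-fold higher and 0 lower in each of the 3 comparisons with the WT-labelled library. They were pdc201, a predicted pyruvate decarboxylase gene, at 2.48 (2.26 to 2.72), 2.42 (2.19 to 2.65) and 2.42 (2.20 to 2.65), and the enolase gene eno102, at 1.27 (1.15 to 1.39), 2.20 (2.08 to 2.31) and 2.21 (2.10 to 2.32), in swd22Δ, ssu72Δ and clr4Δ. The list medians were -0.02, 0.14 and -0.05. Both genes were also at least 2-fold higher than in the unnamed library. Against that control 4, 3 and 3 of the 17 were higher in the deletion libraries and 4 in the WT-labelled one. The shares of all mRNA features higher were 8.89%, 8.39%, 8.13% and 5.43% in the same order. The gene adh1 was at least 2-fold lower in the WT-labelled library than in the unnamed one, at -1.08 (-1.11 to -1.06). Of 4 further glycerol genes, gpd2, for glycerol-3-phosphate dehydrogenase of glycerol synthesis, was at least 2-fold higher than in the WT-labelled library in all 3 (1.66, 1.495 and 1.01). The differences of gpd2 from the unnamed library were 0.92, 0.76 and 0.27 and -0.74 in the WT-labelled library, so no deletion library kept its 2-fold call. The dihydroxyacetone kinase gene dak2 reached 2-fold over the WT-labelled library in clr4Δ, at 1.83 (1.79 to 1.88). The differences of dak2 from the unnamed library were 2.77, 3.08 and 4.27 in swd22Δ, ssu72Δ and clr4Δ and 2.44 in the WT-labelled library. Against that control 1, 1 and 3 of the 4 glycerol genes were at least 2-fold higher in the deletion libraries and 1 in the WT-labelled one. The shares of all mRNA features were 8.89%, 8.39%, 8.13% and 5.43%. The pyruvate carboxylase gene pyr1 differed from the WT-labelled library by 1.24 (1.20 to 1.27) in swd22Δ and 1.13 (1.10 to 1.17) in ssu72Δ, and 0 of the other 3 genes of malate and pyruvate use were 2-fold away. Relative to the unnamed library pyr1 lay at 0.51 and 0.41, and at -0.72 in the WT-labelled library, so these calls too rest on the WT-labelled library. With that control mdh1, of the same list, was at least 2-fold higher in swd22Δ, ssu72Δ and clr4Δ, at 1.38, 1.28 and 1.24. It was 1 of the 4 genes in each, beside 8.89%, 8.39% and 8.13% of all mRNA features, and 0 of the 4 were higher in the WT-labelled library. Of mal1 and sut1, for disaccharide use, and of 3 trehalose genes, 0 were 2-fold away from the WT-labelled library. Higher values of sut1 stood against the unnamed library, at 1.45, 1.34 and 1.77 in swd22Δ, ssu72Δ and clr4Δ and 1.16 in the WT-labelled library, and mal1 reached 2-fold in swd22Δ (1.09) and the WT-labelled library (1.05). Of the trehalose genes 1, 1 and 2 were higher in the deletion libraries than in the unnamed one, beside 8.89%, 8.39% and 8.13% of all mRNA features.

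Hexose transporter genes of the ght family, which feed the same pathway, had 1 of 8 at least 2-fold higher and 2 lower in the swd22Δ library, 0 higher and 2 lower in the ssu72Δ library and 4 higher and 1 lower in the clr4Δ library, each against the WT-labelled one. Among all mRNA features the shares higher and lower were 6.48% and 1.72%, 6.1% and 2.87%, and 5.4% and 1.23%. Set against the unnamed library, 5, 3 and 6 of the 8 were higher and 0 lower, as were 3 in the WT-labelled library. The shares of all mRNA features higher than in the unnamed library were 8.89%, 8.39%, 8.13% and 5.43%. Shares lower were 2.34%, 2.4%, 1.74% and 2.86%. Every lower call of this family therefore rests on the WT-labelled library. The high-affinity transporter gene ght5 held 12406, 3543 and 15686 reads in the swd22, ssu72 and clr4 libraries, against 2385 in the WT-labelled one and 1001 in the unnamed library.

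Some genes of the core stress response were higher in the same libraries. Of 16 such genes, 4 were at least 2-fold higher in the swd22Δ library than in the WT-labelled one, 4 in the ssu72Δ library and 7 in the clr4Δ library, and 0 were lower, with medians of 0.22, 0.20 and 0.84. The shares of all mRNA features higher were 6.48%, 6.1% and 5.4%. The list holds gpd1, ntp1, tps1 and atf1, which stand in other lists too. Against the unnamed library 10, 10 and 14 of the 16 were higher in the deletion libraries, and 7 in the WT-labelled library, beside 8.89%, 8.39%, 8.13% and 5.43% of all mRNA features. Compared with the WT-labelled library, the glutathione transferase gene gst2 was highest in each, at 3.43 (3.37 to 3.48), 3.76 (3.71 to 3.82) and 3.21 (3.15 to 3.27). The chaperone gene hsp16 reached 2-fold over the WT-labelled library in the clr4Δ library alone, at 3.04 (2.95 to 3.13), and also against the unnamed library, at 2.69 (2.62 to 2.76). Of 11 measured genes of sexual differentiation, which respond to starvation, 2 were 2-fold lower in the swd22Δ library, 7 in the ssu72Δ library and 5 in the clr4Δ library, with 0, 1 and 1 higher, each against the WT-labelled library. The shares lower among all mRNA features were 1.72%, 2.87% and 1.23%. The direction turned against the unnamed library, with 6 higher and 0 lower in swd22Δ, 2 and 1 in ssu72Δ and 5 and 0 in clr4Δ. In the WT-labelled library 7 were higher and 1 lower. Beside these counts, 8.89%, 8.39%, 8.13% and 5.43% of all mRNA features were higher, and 2.34%, 2.4%, 1.74% and 2.86% lower. The part of either state in the differences of the 8 genes was not tested.

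Of 4 features within 1000 bases of inv1, 3 were also at least 2-fold higher in all 3 deletion libraries than in the WT-labelled one. Among mRNA features 152 were higher in all 3. No such number was computed for the other types of feature, so the 3 of 4 has no direct background. The gene SPCC191.10, which ends 995 bases before inv1 starts on the same strand, held 103, 79 and 118 reads in the libraries labelled swd22, ssu72 and clr4 deletion, against 6 in the WT-labelled one and 4 in the unnamed library. Its log2 differences from the WT-labelled library were 3.74 (2.57 to 5.22), 3.07 (1.88 to 4.56) and 3.72 (2.55 to 5.19). The antisense feature of SPCC191.10 held 147, 152 and 265 reads, against 27 in the WT-labelled library and 11 in the unnamed library. SPNCRNA.1224, which overlaps the end of inv1 by 67 bases on the same strand, held 133, 339 and 326 reads, against 32 and 21, so that reads of either may have been counted in the other. SPCC1450.01c, which lies 8 bases beyond inv1 on the opposite strand, held 253, 332 and 338 reads, against 180 in the WT-labelled library and 356 in the unnamed library, and was less than 2-fold away.

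At fbp1 the antisense feature that spans the whole gene was not higher in the deletion libraries. It held 629, 698 and 564 reads in the libraries labelled swd22, ssu72 and clr4 deletion, against 538 in the WT-labelled one and 620 in the unnamed library. Scaled to the libraries, its log2 differences from the WT-labelled library were -0.14 (-0.30 to 0.03), -0.28 (-0.44 to -0.11) and -0.51 (-0.68 to -0.34). These reads are 40.4%, 61.5% and 32.3% of the fbp1 reads in the deletion libraries and 364% and 653% in the WT-labelled and unnamed libraries, where the antisense feature held more reads than the gene. The percentages are not scaled to length. The antisense feature, from 197369 to 200995, is longer than the 1815 bases of fbp1, so per base they would be smaller. The strand setting of the counting is not given in the sources used, so some reads of fbp1 and this feature may be shared. The reads of fbp1 in the deletion libraries were not all counted in both, since the spanning feature held fewer there. SPNCRNA.1325, which begins upstream of fbp1 on the same strand and overlaps its first 66 bases, held 152, 200 and 207 reads, against 98 and 57. Its log2 differences from the WT-labelled library were 0.27 (-0.10 to 0.65), 0.38 (0.02 to 0.74) and 0.50 (0.15 to 0.86), below those of fbp1 in each library. At gut2 the spanning antisense feature held 576, 723 and 1011 reads, against 434 in the WT-labelled library and 514 in the unnamed library, with differences of 0.05 (-0.14 to 0.23), 0.08 (-0.09 to 0.26) and 0.64 (0.48 to 0.81).

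**Figure D4:**
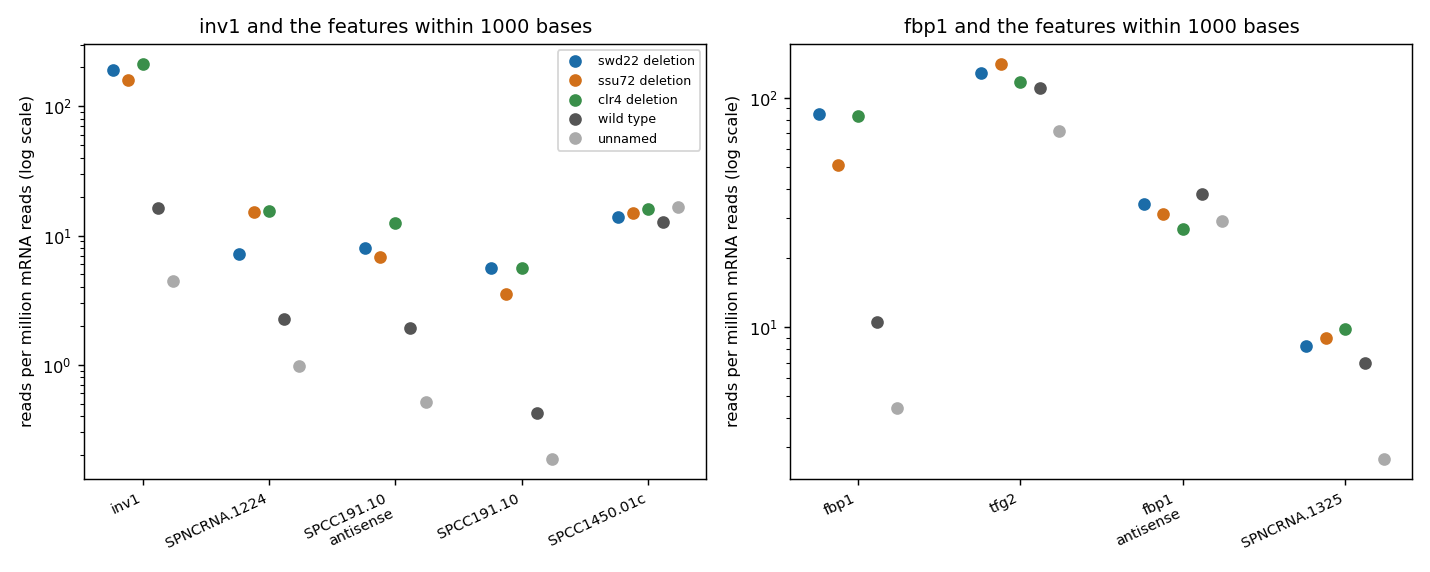
Reads scaled to the library's mRNA reads (RPM), on a log scale, of inv1 (left) and fbp1 (right) and of every feature within 1000 bases of each, in the libraries labelled swd22, ssu72 and clr4 deletion and wild type and in the unnamed library. SPCC191.10, its antisense feature and SPNCRNA.1224 are high in the deletion libraries as inv1 is, while the fbp1 antisense feature held 538 to 698 reads before scaling in all 5 libraries.

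Upstream of agl1, SPNCRNA.866 overlaps the first 67 bases of the gene's feature on the same strand and held 356, 564 and 622 reads in the libraries labelled swd22, ssu72 and clr4 deletion, against 155 in the WT-labelled one and 598 in the unnamed library. Its differences from the WT-labelled library were 0.84 (0.56 to 1.12), 1.21 (0.95 to 1.48) and 1.42 (1.17 to 1.69). Over all 8 members, 24 features lay within 1000 bases, and 2 of 11 mRNA features among them were at least 2-fold away in a comparison with the WT-labelled library. These were SPCC191.10 and nmt1, a thiamine-repressed gene 929 bases beyond gut2, which held 37, 89 and 147 reads against 22. The differences of nmt1 from the WT-labelled library were 0.39 (-0.41 to 1.22) in swd22Δ, 1.36 (0.68 to 2.11) in ssu72Δ and 2.16 (1.51 to 2.88) in clr4Δ. It held 28 reads in the unnamed library. SPCC191.10 was thus at least 2-fold higher in all 3, and nmt1 in ssu72Δ and clr4Δ only. The shares of all mRNA features higher were 6.48%, 6.1% and 5.4% in swd22Δ, ssu72Δ and clr4Δ. The share away in any of the 3 comparisons was not computed, so the 2 of 11 has no direct background. The neighbours of mae2, ent3 and SPCC794.15, differed by -0.06 to 0.06 on the log2 scale in the 3 comparisons. The gene vta1 overlaps the first 63 bases of gld1 on the same strand, held 546 reads in the clr4Δ library against 412 in the WT-labelled one, and differed there by -0.17 (-0.36 to 0.01).

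The 4 members whose levels spanned at least 2 on the log2 scale were set beside 4940 mRNA features with at least 100 reads in a library, by the distance between centred log2 levels over the 5 libraries. The nearest to inv1 was its neighbour SPCC191.10 (distance 0.69), followed by hsp3105, a ThiJ domain protein gene (0.85), and SPCC663.08c, a short chain dehydrogenase gene (0.98). The nearest to fbp1 was pdc201 (0.63), followed by SPCPB16A4.06c (0.69) and SPCC191.10 (0.78). The nearest to gld1 were zwf2, a predicted glucose-6-phosphate dehydrogenase gene (0.71), the hexose transporter gene ght1 (0.79) and the glyoxylase gene hsp3101 (1.01). In the clr4Δ library zwf2 held 1759 reads against 258 in the WT-labelled one. The nearest to gut2 were SPAPB24D3.07c (0.79), SPAPB1A11.03, a predicted lactate dehydrogenase of the cytochrome b2 type (0.97), and SPAC2H10.01, a predicted zinc cluster transcription factor gene (1.13). SPCC191.10 reached 100 reads only in the swd22Δ and clr4Δ libraries (103 and 118), where it was high. It held 6 reads in the WT-labelled library and 4 in the unnamed one, so its places beside inv1 and fbp1 rest on few reads. Likewise hsp3105 reached 100 reads only in the deletion libraries (388, 604 and 342), with 30 in the WT-labelled one and 10 in the unnamed one. SPAPB1A11.03 reached them only in the clr4Δ library (289). These features passed the minimum only through libraries where they were high. All these distances rest on 5 single libraries and describe them only.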

How the data were processed

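RNA was measured in 4 genotypes with 1 library each, grouped by the genotype label. Libraries were made with the ScriptSeq v2 kit and sequenced on an Illumina NextSeq, per the labels' protocols. Per the submitters' processing notes the tools were Trimmomatic and STAR. Their versions, the build, the strand setting and the source of the ratios are not stated in what was used here. The authors deposited a log2 ratio and a p-value per feature, per the file headers. All 4 files share a library that they do not name. The deposited p-values set reads of 1 library against another, with no replicate, and were not used to test genotype.

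Read numbers were solved from both values under the random sampling model for an MA plot, in which ratio and p-value fix both counts. Among 1053 to 1268 features of low count per file, 100% of the estimates lay within 0.05 of a whole number. Counts of 6558 features came from ratio and p-value, 95 from ratios alone, and 362 features, listed with ratio 0 throughout, can hold no more than 4 reads. The step was tested on simulated data made with the same model, which cannot test whether the deposited values follow it. All 8 members were solved and held at least 95 reads in every library.

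Differences are log2 ratios of these reads on the deposited scale, with 0 reads set to 0.5. An mRNA feature was measured with at least 10 reads in the higher library. Intervals are exact Clopper-Pearson intervals for differences and exact Poisson intervals for levels, at 95%, and cover counting error only, since the reads carry no molecular identifiers. A feature's length is its span in the files. In 99.2% of 3824 features with a RefSeq symbol the 3' end equals that in ASM294v3, whose own coordinates gave the sequences. Named beside the members are genes of fixed lists at 2-fold (at most 4 per list and comparison), some of the features within 1000 bases, and the 3 features nearest in pattern. The names git10 and ppk34 were not matched. Members and lists were chosen with earlier results of these data known. Python 3.11.15, SciPy 1.17.1 and pandas 2.3.3 were used.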

Additional observations from a re-analysis of the deposited data

How the results depend on the processing

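With mRNA library totals or with the median mRNA ratio as the scale, the counts of members at 2-fold were the same in all 6 comparisons among the deletion and wild type libraries, and member differences moved by at most 0.046 in the 3 with the wild type library while the median ratio shifted every member by 0.060 between ssu72Δ and swd22Δ and by -0.065 between swd22Δ and clr4Δ. Every member held at least 95 reads in every library, so the minimum of reads and the value for 0 reads could not change a member count. With the unnamed library as control, 0 members were at least 2-fold lower in the swd22Δ library and 0 in the ssu72Δ library. There, mae2 and gut2 in the ssu72Δ library turned to 0.089 and 0.054, and the cause was not tested. At 3-fold, 0 members were lower in the ssu72Δ library, and at 1.5-fold, 1 was lower in the clr4Δ library. Differences of the deposited log2 values equal those of the recovered reads by construction, which tests nothing about the recovery. No paired analysis was possible because each genotype had 1 library, and for the same reason no replicate could be left out. The differences of agl1 in the CPF libraries lie close to 2-fold, so counting error leaves those calls open. Few reads limit SPCC191.10, whose intervals are wide.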
